A study of Arabidopsis thaliana with 9 samples.

Results

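AUR1 and AUR2 encode Aurora kinases and PRL (PROLIFERA) encodes MCM7, and these 3 genes were followed here across wild-type and Mediator-mutant seedlings of Arabidopsis thaliana. They were taken as the probe sets that the platform annotation assigns to AUR1, AUR2 or PRL, which gave 3 probe sets, 1 per gene, among 9190 genes with a named probe set. Their identifiers are 253403_at for AUR1 (AT4G32830), 266655_at for AUR2 (AT2G25880) and 255513_at for PRL (AT4G02060). None carries the suffix that marks probe sets matching several transcripts, and cross-hybridisation between AUR1 and AUR2, which are close relatives, was not tested.

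Above-ground parts of soil-grown seedlings were profiled on Affymetrix arrays, with 3 arrays each for Col-0 wild type, cct-1 and gct-2. Both mutants are in the Col-0 background, and cct-1 and gct-2 carry mutations in CCT (MED12) and GCT (MED13), subunits of the CDK8 module of Mediator. Each array was a separate biological replicate made from a pool of 75 to 100 seedlings, and seedlings without cotyledons or leaf primordia had been left out. Harvest was set by the size of the first leaf primordia, at 7 days in wild type and 9 days in both mutants, so that genotype and 2 days of age cannot be told apart in either comparison with wild type.

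Aurora kinases are conserved serine/threonine kinases that act in mitosis. In Arabidopsis AUR1 and AUR2 form the alpha class, which is found on the spindle and the forming cell plate and takes part in orienting formative divisions, while AUR3, the beta class, is found at centromeres. MCM7 is a subunit of the MCM helicase, the ring that is loaded on replication origins in G1 and unwinds DNA in S phase, and PRL is expressed in dividing cells throughout the plant. Such genes are read mostly in cells that pass through S phase or G2 and M, so in whole seedlings fewer dividing cells and less RNA per dividing cell cannot be told apart.

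The median log2 level of an array was 7.70 to 7.76, and arrays of a genotype correlated with each other at 0.9739 or more across tested probe sets. Testing was limited to probe sets that 3 or more arrays placed over their own 40th percentile (6.83 to 6.87, the filter below), and AUR1, AUR2 and PRL lay above it on all 9 arrays. No probe set was named for CCT or GCT, and the genotypes were therefore not checked through the mutated genes. Of the shoot photosynthetic markers 6 of 15 had a named probe set, each above the filter on all 9 arrays with means between 11.36 and 13.58. The lists of root, shoot meristem, vascular and epidermal markers had none and were not analysed here.

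The alpha Aurora genes had lower mean levels in both mutants. AUR2 fell in cct-1 and in gct-2, by 26.7% and 28.4% of its wild-type level. AUR1 fell by 25.4% in gct-2, while in cct-1 it differed by a log2 value of -0.32 and did not pass the test. PRL fell by 24.7% in gct-2 but not in cct-1, and it was 1.42-fold higher in cct-1 than in gct-2. Differences are given between mean log2 levels, and "fell", "rose" and "called" mark a Benjamini-Hochberg adjusted p under 0.05 with limma over all 10395 tested probe sets.

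The log2 level of AUR1 was 10.13, 10.15 and 10.02 on the wild-type arrays, 9.69, 9.96 and 9.68 in cct-1 and 9.48, 9.79 and 9.75 in gct-2, in the order of replicates 1 to 3. The wild-type arrays lay above every mutant array, with a gap of 0.06 to the nearest cct-1 array (replicate 2) and of 0.23 to the nearest gct-2 array, while the mutants overlapped. The group means were 10.10 ± 0.07, 9.78 ± 0.16 and 9.68 ± 0.17 (SD, n = 3 each).

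AUR2 had a log2 level of 10.52, 10.36 and 10.17 in wild type, 9.93, 9.93 and 9.85 in cct-1 and 9.74, 9.92 and 9.95 in gct-2. Every mutant array again lay below the wild-type arrays, and the spread was wider in wild type (10.35 ± 0.17, SD, n = 3) than in cct-1 (9.90 ± 0.05) or gct-2 (9.87 ± 0.11). The lowest wild-type array for both AUR1 and AUR2 was replicate 3, and the lowest gct-2 array for both was replicate 1.

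PRL followed another order. Its log2 level was 9.40, 9.14 and 9.23 in wild type, 9.40, 9.54 and 9.14 in cct-1 and 8.97, 8.81 and 8.77 in gct-2. The gct-2 arrays lay below all 6 others, by 0.17, while cct-1 (9.36 ± 0.20, SD, n = 3) and wild type (9.26 ± 0.13) overlapped and gct-2 stood at 8.85 ± 0.10. The gct-2 replicate 1 array, lowest for AUR1 and AUR2, was the highest of its genotype for PRL.

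**Figure D1:**
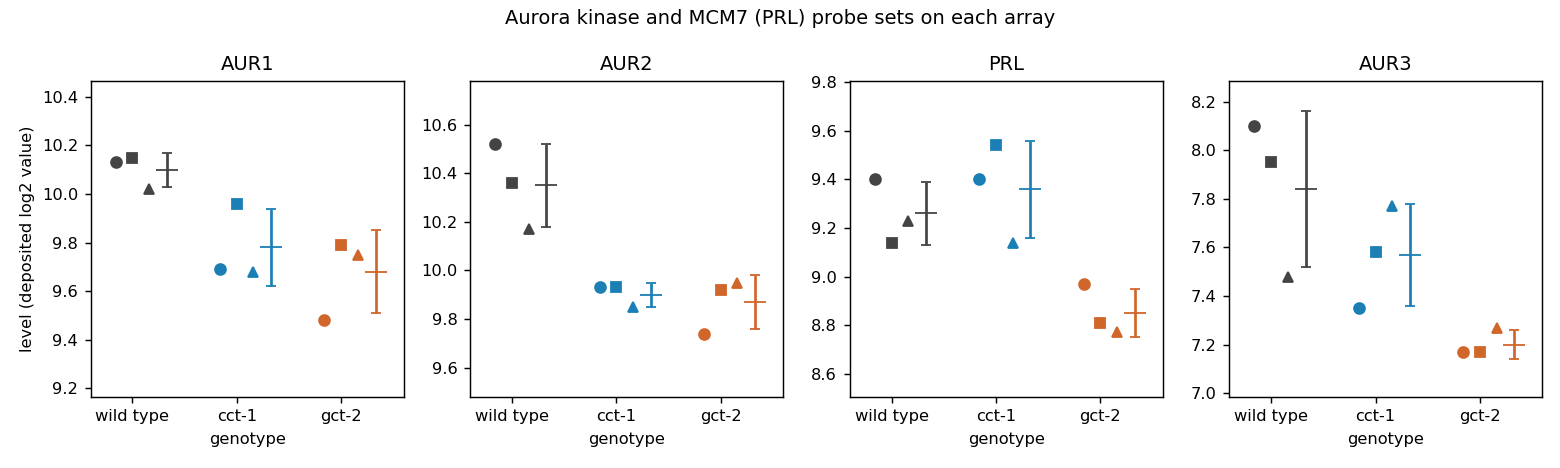
Level (deposited log2 value) of AUR1, AUR2, PRL and the third Aurora gene AUR3 on each array, by genotype. Circles, squares and triangles are replicates 1, 2 and 3, the bar beside them is the mean with its SD (n = 3), and every panel spans the same range of log2 units. Wild-type arrays lie above all mutant arrays for AUR1 and AUR2, whereas for PRL the gct-2 arrays alone lie apart, at 8.77 to 8.97.

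In cct-1 against wild type AUR2 differed by a log2 value of -0.45 (SE 0.10, 95% interval -0.68 to -0.22, adjusted p = 0.0217 with limma). AUR1 differed by -0.32 (SE 0.11, -0.57 to -0.07), with an unadjusted p of 0.0176 and an adjusted p of 0.0908. PRL differed by 0.10 (SE 0.12, -0.17 to 0.36, adjusted p = 0.624), an interval that holds no loss larger than 0.17. Thus 1 of the 3 genes was called, lower, where 6.63% of all tested probe sets were called lower and 12.9% in either direction. The arrays of AUR1 and AUR2 did not overlap with wild type, as for 15.6% of all tested probe sets in the lower direction.

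In gct-2 against wild type the 3 genes were called, where 7.77% of all tested probe sets were called lower and 15.3% in either direction. AUR2 differed by -0.48 (SE 0.10, 95% interval -0.71 to -0.25, adjusted p = 0.0137 with limma) and AUR1 by -0.42 (SE 0.11, -0.67 to -0.17, adjusted p = 0.0334). PRL differed by -0.41 (SE 0.12, -0.67 to -0.14), with an adjusted p of 0.0465. None of the 3 overlapped with wild type, as for 18.7% of all tested probe sets in the lower direction. By size AUR2 ranked 1401, AUR1 1796 and PRL 1890 by absolute log2 difference among the 10395 tested.

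The mutants, both 9 days old, differed in PRL and not detectably in the Aurora genes. PRL was higher in cct-1 than in gct-2 by 0.51 (SE 0.12, 95% interval 0.24 to 0.77, adjusted p = 0.0379 with limma), 1 called gene of 3 where 3.19% of all tested probe sets were called higher and 6.39% in either direction. Its arrays did not overlap between the mutants, as for 14.2% of all tested probe sets in this direction. AUR1 differed between the mutants by 0.10 (-0.15 to 0.35, adjusted p = 0.633) and AUR2 by 0.04 (-0.19 to 0.26, adjusted p = 0.865). Those intervals leave room for differences of up to 0.35 and 0.26. The comparisons with wild type share the same 3 wild-type arrays, whereas this one does not use them for its means.

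Over the 3 genotypes together, limma's F test called AUR2 (adjusted p = 0.017) and PRL (adjusted p = 0.0298), and AUR1 missed the threshold (adjusted p = 0.0514), where 19.7% of tested probe sets were called. The resulting order of mean levels was wild type, cct-1, gct-2 for both Aurora genes, and cct-1 against gct-2 did not pass the test. For AUR1 the step from wild type to cct-1 did not pass either (adjusted p = 0.0908 with limma). For PRL the order was cct-1, wild type, gct-2, with cct-1 and wild type as neighbours that did not pass.

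Each of the 5 called differences lost its call in at least 1 fit that left out a single array. Such a fit also has fewer arrays. The call of AUR1 in gct-2 did not survive the omission of any single wild-type or gct-2 array (highest adjusted p 0.109, for wild-type replicate 2), with log2 differences between -0.48 and -0.33. The call of AUR2 in cct-1 was lost without wild-type replicate 1 or 2 or any 1 cct-1 array (up to 0.076, without wild-type replicate 2; differences -0.54 to -0.36), and in gct-2 only without wild-type replicate 2 (0.052; -0.57 to -0.40). The call of PRL in gct-2 was lost without any wild-type array, any gct-2 array or cct-1 replicate 1 (up to 0.135, without gct-2 replicate 3; -0.47 to -0.34). Its difference between the mutants lost the call without wild-type replicate 2 or 3, cct-1 replicate 1 or 2, or gct-2 replicate 2 or 3 (up to 0.133, without gct-2 replicate 3; 0.42 to 0.62). For these 5 differences the sign was the same in each of the 9 fits.

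**Figure D2:**
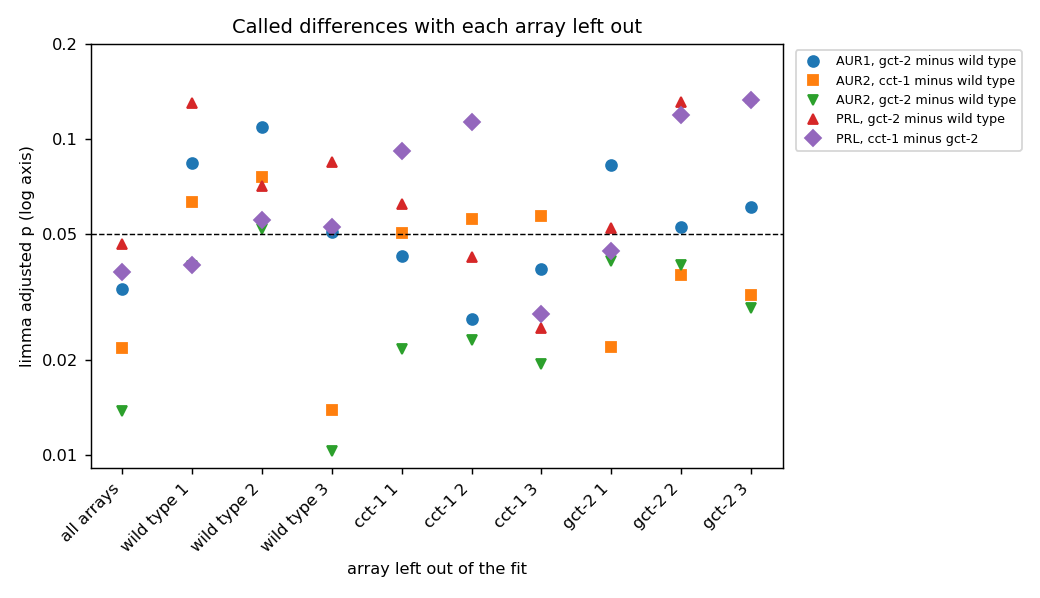
Adjusted p (limma, log axis) of the 5 called differences of AUR1, AUR2 and PRL in the fit to all arrays and in the 9 fits that each leave out the array named on the x axis. The dashed line is the threshold of 0.05. AUR2 in gct-2 crosses it once, at 0.052, while PRL in gct-2 lies above it in 7 of 9 fits.

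Whether the 3 genes changed unequally was examined from differences between probe sets within each array, which do not depend on the overall level of an array. AUR1 minus AUR2 was -0.39, -0.21 and -0.15 on the wild-type arrays, -0.24, 0.03 and -0.16 in cct-1 and -0.26, -0.12 and -0.20 in gct-2. The genotypes overlapped, and the difference did not separate them (exact permutation F test over 1680 assignments of the 9 arrays, p = 0.539). PRL minus the mean of AUR1 and AUR2 was -0.92, -1.11 and -0.86 in wild type, -0.41, -0.41 and -0.63 in cct-1 and -0.64, -1.04 and -1.08 in gct-2. The cct-1 arrays lay above all others, by a margin of 0.01 over gct-2 replicate 1, with a mean of -0.48 ± 0.12 against -0.97 ± 0.13 in wild type and -0.92 ± 0.24 in gct-2 (SD, n = 3 each). This difference did not pass the test either (exact permutation p = 0.05, 0.1 adjusted over both tests, with 0.00357 as the smallest p that the design allows).

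**Figure D3:**
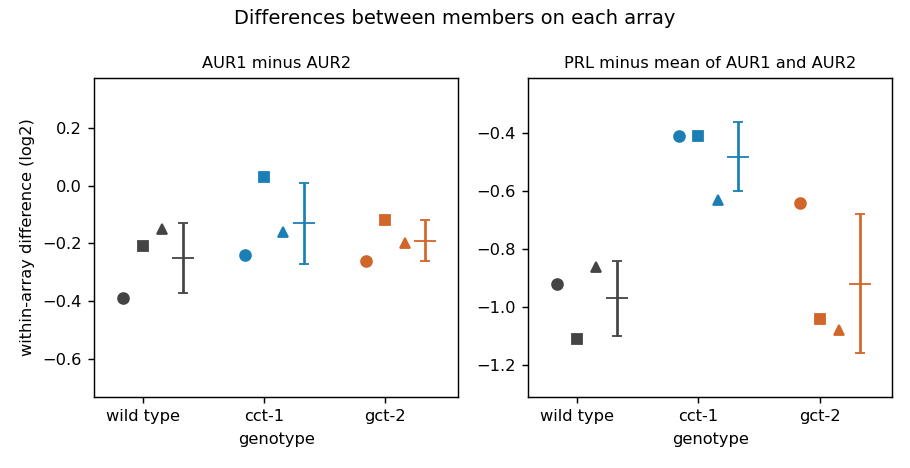
Within-array log2 differences, AUR1 minus AUR2 and PRL minus the mean of AUR1 and AUR2, for each array by genotype. Circles, squares and triangles are replicates 1, 2 and 3, and bars give the mean with SD (n = 3). Genotypes overlap on the left, and on the right the cct-1 arrays (-0.63 to -0.41) lie highest, just above gct-2 replicate 1 at -0.64.

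Other genes of mitosis and replication were taken from lists of 198 division genes, of which 27 had a named probe set and 16 passed the filter, the 3 genes above included. The mitotic cyclins and CDKs of the lists were not among them and were not analysed here. In cct-1 4 of the 16 were called lower and 0 higher (limma; 5 lower and 0 higher at an unadjusted p under 0.05). In gct-2 8 of 16 were called lower and 0 higher (10 lower and 1 higher unadjusted). Of all tested probe sets 6.63% were called lower and 6.30% higher in cct-1, and 7.77% lower and 7.48% higher in gct-2, and at an unadjusted p under 0.05 the lower shares were 13.6% and 15.7%. Leaving out AUR1, AUR2 and PRL, 3 of 13 were called lower in cct-1 and 5 of 13 in gct-2. At an unadjusted p under 0.05 with limma the counts were 3 and 7 lower and 0 and 1 higher. The median log2 difference of the 13 was -0.15 in cct-1 and -0.44 in gct-2 against 0.009 and -0.007 over all tested probe sets. With 1 array left out, the count over the 16 genes in cct-1 was 2 without wild-type replicate 1 or 2 or cct-1 replicate 2 or 3, where 8.28%, 5.73%, 7.67% and 11.0% of all tested probe sets were called in either direction. In gct-2 it was 4 of 16 without wild-type replicate 1 or gct-2 replicate 2 or 3, with 11.0%, 8.73% and 10.1% of all tested probe sets called, and 3 without wild-type replicate 2, with 7.82%.

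AUR3, the remaining Aurora gene of Arabidopsis, fell in gct-2. Its log2 level was 8.10, 7.95 and 7.48 in wild type, 7.35, 7.58 and 7.77 in cct-1 and 7.17, 7.17 and 7.27 in gct-2, so that gct-2 lay below all other arrays while cct-1 overlapped with wild type. The difference was -0.64 (SE 0.16, adjusted p = 0.0282 with limma) in gct-2 and -0.28 (SE 0.16, adjusted p = 0.293) in cct-1. The mutants differed by 0.36 (adjusted p = 0.218), so a difference between them was not shown. The call in gct-2 was lost without wild-type replicate 1 or 2 or any 1 gct-2 array, at up to 0.102. With AUR3 counted, the 3 Aurora genes were each called lower in gct-2, where 7.77% of all tested probe sets were called lower. In cct-1 AUR2 alone was called, where 6.63% of all tested probe sets were called lower.

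Among spindle and cytokinesis genes a pair fell in both mutants. KINESIN-12B (PAKRP1L), a motor of the phragmoplast midzone, stood at 9.29, 9.31 and 9.24 in wild type, 8.81, 8.87 and 8.89 in cct-1 and 8.86, 8.59 and 8.42 in gct-2, below wild type on every mutant array. It fell by 0.43 in cct-1 (SE 0.11, adjusted p = 0.0307 with limma) and by 0.66 in gct-2 (SE 0.11, adjusted p = 0.00421). The call in cct-1 held only when gct-2 replicate 1 or 3 was the array omitted and was lost in the other 7 fits, with an adjusted p of 0.102 when wild-type replicate 2 was omitted.

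AT2G28620, which the gene table gives by locus and the lists here place with the spindle genes, had the largest difference of the 16 in gct-2. It stood at 8.09, 7.82 and 8.24 in wild type, 7.50, 7.21 and 6.82 in cct-1 and 6.61, 6.98 and 6.82 in gct-2. It fell 1.83-fold in cct-1 (adjusted p = 0.0148 with limma) and 2.37-fold in gct-2 (adjusted p = 0.00254). The cct-1 array at 6.82 and 2 gct-2 arrays lay under the filter, and with these raised to the filter the folds were at least 1.81 and 2.23. Both calls were kept in each of the 9 fits with 1 array left out.

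Other mitotic genes were not called in either mutant. The spindle checkpoint genes BUBR1 and BUB3.1 differed by -0.06 and -0.15 in cct-1 and by -0.12 and -0.14 in gct-2. HTR12, the centromeric histone H3, differed by -0.21 and -0.28, and KEU, a regulator of membrane fusion at the cell plate, by -0.12 and -0.06. Both tested genes of the anaphase-promoting complex list had positive differences. SAMBA, a regulator of the complex, differed by 0.21 and 0.30 and its subunit gene HBT by 0.10 and 0.07. CDC27a of the same list lay under the filter and was not tested, with differences of 0.17 and -0.01. SAMBA was called higher in both mutants when cct-1 replicate 1 was left out.

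The 3 tested replication genes besides PRL had lower means in gct-2 than in wild type. TOPII, which encodes the DNA topoisomerase II that untangles sister chromatids, stood at 10.18, 10.24 and 10.18 in wild type, 9.88, 10.11 and 10.17 in cct-1 and 9.98, 9.54 and 9.53 in gct-2. It fell by 0.51 in gct-2 (SE 0.13, adjusted p = 0.0294 with limma), a call lost without any 1 wild-type array or gct-2 replicate 2 or 3, at up to 0.105. In cct-1 it differed by -0.14 (adjusted p = 0.504).

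PSF2, a subunit of the GINS complex that works with the MCM ring at the fork, was low on the same mutant's arrays with 1 exception, gct-2 replicate 1, which lay within the wild-type range. Its level was 7.44, 7.30 and 7.22 in wild type, 7.50, 7.39 and 7.24 in cct-1 and 7.23, 6.56 and 6.83 in gct-2. It differed by -0.45 in gct-2 (adjusted p = 0.0851 with limma), by 0.05 in cct-1 (adjusted p = 0.86) and by 0.50 between cct-1 and gct-2 (adjusted p = 0.0962), with 2 gct-2 arrays under the filter, and was not called. POLA3, a primase subunit of DNA polymerase alpha, differed by -0.44 in gct-2 (adjusted p = 0.0579) and by -0.16 in cct-1 (adjusted p = 0.478). Against wild type the gct-2 difference of POLA3 passed when wild-type replicate 3 or cct-1 replicate 1 or 3 was omitted, and that of PSF2 when gct-2 replicate 1 was.

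Counted together, 2 of the 4 tested replication genes, PRL and TOPII, were called lower in gct-2 and 4 of 4 at an unadjusted p under 0.05, against 7.77% and 15.7% of all tested probe sets. In cct-1 0 of 4 were called with limma, and 0 at an unadjusted p under 0.05. Of the 11 tested genes of mitosis and cytokinesis 3 were called lower in cct-1 and 5 in gct-2, against 6.63% and 7.77% of all tested probe sets. Leaving out AUR1 and AUR2, the counts were 2 of 9 in cct-1 and 3 of 9 in gct-2. Between the mutants PRL was called and the other 15 were not, 6.25% of the 16 against 6.39% of all tested probe sets. Without gct-2 replicate 1 KINESIN-12B, PSF2 and TOPII were called there as well, 4 genes in all. In that fit 6.26% of all tested probe sets were called. The call of PRL was lost without the arrays named above.

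**Figure D4:**
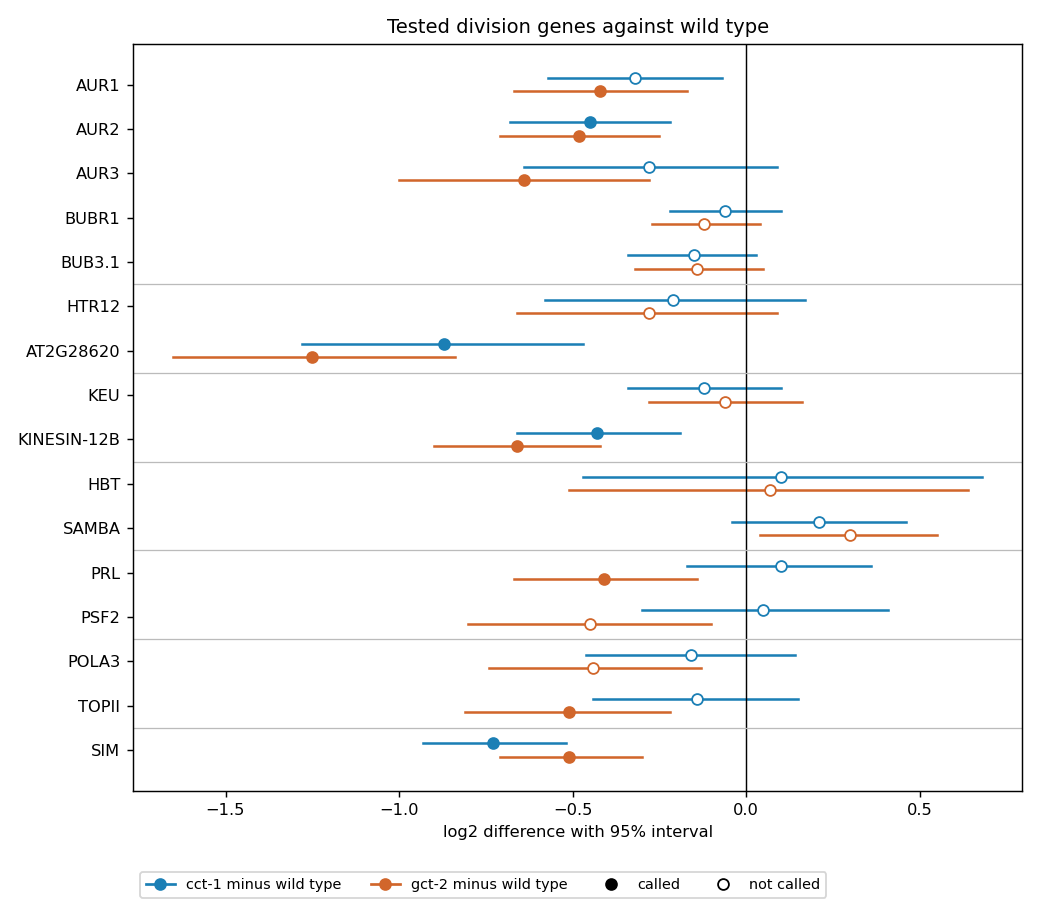
Log2 difference from wild type of the 16 tested division genes in cct-1 and gct-2, with 95% intervals from the limma fit (n = 3 arrays per genotype), filled where called. Horizontal lines separate, from the top, mitotic kinases and checkpoint, spindle, cytokinesis, anaphase-promoting complex, MCM and licensing, replication fork, and CDK inhibitor genes. In gct-2 the Aurora genes, PRL and TOPII lie between -0.64 and -0.41, and in cct-1 PRL lies at 0.10.

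SIM (SIAMESE), an inhibitor of cyclin-dependent kinases known for switching trichome cells from mitosis to endoreduplication, fell too. It stood at 9.43, 9.29 and 9.30 in wild type, 8.67, 8.51 and 8.66 in cct-1 and 8.71, 8.81 and 8.97 in gct-2, so that both mutants lay below wild type. It fell by 0.73 in cct-1 (SE 0.09, adjusted p = 0.0016 with limma) and by 0.51 in gct-2 (SE 0.09, adjusted p = 0.00684). Both calls were kept in each of the 9 fits with 1 array left out. As an inhibitor of division it stands apart in role from the other called genes.

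The other 11 listed genes with a probe set lay under the filter on all 9 arrays and were not tested. They included the Aurora partner gene WYR, the plant counterpart of INCENP, the histone kinase gene Haspin, BUB3.2, and ICU2, the catalytic subunit of DNA polymerase alpha. In a fit with no filter the 11 differences ran from -0.13 to 0.52 in cct-1 and from -0.43 to 0.20 in gct-2. ICU2 differed by -0.08 in cct-1 and by -0.43 in gct-2 (adjusted p = 0.0668 with limma), WYR by 0.14 and -0.29, Haspin by 0.04 and -0.25, and BUB3.2 by -0.08 and -0.20. The condensin gene ATSMC2 had the highest difference in both mutants, 0.52 in cct-1, the 1 call of that fit among the 11 (adjusted p = 0.0364), and 0.20 in gct-2. The levels of the 11, with genotype means of 3.55 to 6.50 for WYR, Haspin, BUB3.2, ICU2 and ATSMC2, were not shown to be above background.

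Stomatal lineage cells are a dividing cell type of young leaves and cotyledons. Of the 9 markers 3 had a probe set, and their summed level (log2 of the sum of linear values) was 7.94 to 8.31 in wild type, 7.10 to 7.64 in cct-1 and 7.18 to 7.57 in gct-2. FMA (FAMA), which directs guard cell formation, was at 7.41, 7.91 and 7.72 in wild type, 6.92, 6.10 and 6.83 in cct-1 and 6.40, 6.77 and 6.92 in gct-2. It passed the filter through its 3 wild-type arrays, with 2 arrays of each mutant under it, so no test is given. SPCH and MUTE lay under the filter on all 9 arrays, with differences of 0.29 and -0.51 in cct-1 and of -0.09 and -0.83 in gct-2, so the 3 markers did not share a sign in cct-1. The part of these cells in the lower Aurora levels was not tested. PAP85, the 1 seed reserve gene of 10 with a probe set, was at 1.58 to 1.91 in wild type, 4.17 to 7.81 in cct-1 and 3.55 to 8.21 in gct-2, and its part was not tested either. Photosynthetic markers summed to 15.60 to 15.64 in wild type, 15.42 to 15.54 in cct-1 and 15.61 to 15.64 in gct-2. Singly they differed from wild type by -0.30 (PSAE-1) to 0.08 (RCA) in cct-1 and by -0.15 (PSAN) to 0.30 (LHCB4.2) in gct-2. Against wild type LHCB4.2 alone was called, higher in gct-2 (adjusted p = 0.0242 with limma).

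The named genes whose levels ran most alike to each of the 3 were ranked by Pearson's r over the 9 arrays among 5489 named tested probe sets. The points fall into 3 genotypes and share the arrays, so r mostly compares genotype means and is given as a description. AUR1 was followed by DIM1B, which encodes an rRNA dimethylase (0.967), AT2G42130 (0.953), the plastid gene petA for cytochrome f (0.940), AT2G37470 (0.937) and AT3G57160 (0.934). For AUR2 these were AT3G17680 (0.987), AT5G38300 (0.975), AT1G73655 (0.968), AT2G42130 (0.961) and AT1G61170 (0.961). AT2G42130 was thus among the nearest of both Aurora genes, with mean levels of 10.41 in wild type, 10.15 in cct-1 and 10.09 in gct-2.

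PRL ran with AT4G27380 (0.954), AT1G26740 (0.950), AT1G21000 (0.949), CCMH of mitochondrial cytochrome c maturation (0.946) and AT3G06035 (0.944). None of these 5 was among those of AUR1 or AUR2. Having been picked for this likeness, they carry no test of their own. Their differences were 0.04 to 0.17 in cct-1 against wild type, -0.36 to -0.17 in gct-2 against wild type and 0.24 to 0.53 between the mutants.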

How the data were processed

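The deposited values were log2 probe set expression values made by the authors, 1 column per array and used as deposited. The submitters' processing notes name GCRMA and MAS5 and no version, and which of them made the values is not stated there. That the values are log2 was judged from their range. Of 16863 probe sets 37 were controls, and the 10395 that exceeded the 40th percentile of at least 3 arrays were tested.

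In R 4.3.3 with limma 3.58.1, the 9 arrays entered 1 group-means model (lmFit, eBayes), and p-values were adjusted (Benjamini-Hochberg) over all tested probe sets. Folds are between mean log2 values. Lower bounds raise levels under an array's filter to that filter. Within-array differences were tested with an exact permutation test. Both procedures were tested on simulated data. The number of arrays limits the precision, with a median SE of 0.111 for cct-1 minus wild type.

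Probe sets were named from the platform annotation, with symbols brought up to date from the RefSeq table of TAIR10.1, and probe sets with several genes or none were left unnamed. The members, the gene lists and the rules were chosen with earlier results of these data known. Named genes were the 3 members, the tested genes of the division lists, and the 5 named probe sets with the highest Pearson's r to each member. Alternatives were other filters, normalizations, variance models, weighted arrays, a block for the replicate number, 2-group fits and leaving out each array. Probe, promoter and protein sequences were not used here.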

Additional observations from a re-analysis of the deposited data

Results flagged for a closer look

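PRL was marked for a closer look because its change against wild type differed between the mutants by a direct test: cct-1 minus gct-2 was 0.51 on the log2 scale (limma adjusted p = 0.0379), with the 3 cct-1 arrays at 9.14 to 9.54 and the 3 gct-2 arrays at 8.77 to 8.97. Both mutants were 9 days old. No group had enough arrays for a search for single arrays that lie far from the others.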

How the results depend on the processing

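The differences of AUR1, AUR2 and PRL kept their sign under the alternatives other than leaving out an array. With the replicate number as a block the adjusted p was 0.0513 for AUR2 in cct-1, 0.0542 for PRL in gct-2 and 0.0558 for PRL between the mutants. Whether arrays of the same number share a batch was not tested. Deviations of same-numbered arrays correlated at -0.27 to 0.09 over 9 pairs, and 1 of 9 arrays correlated best with its own number. Among differently numbered arrays the highest correlation was 0.25, for cct-1 replicate 2 and gct-2 replicate 1. With no filter PRL reached 0.0543 in gct-2 and 0.0529 between the mutants, with quantile normalization 0.051 in gct-2, and in a fit of the 2 mutants alone 0.0672. The F test of AUR1 passed with the 60th percentile filter (0.0416), median centring (0.0484), eBayes with trend and robust settings (0.0303) and array weights (0.0323). The cause of these shifts was not tested.

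Probe sets called numbered 2640 with no filter and 2682 with array weights in gct-2 (1586 as reported), 1023 with array weights, 358 with the block and 389 in a fit of the mutants alone between the mutants (664), and 3146 with array weights in the F test (2050). The fit with no filter took in the 16863 probe sets less the 37 controls, so its counts are out of more than the 10395 of the others. With the block 2 division genes were called in cct-1 (4 as reported), where 979 probe sets were called in all (1344 as reported). Between the mutants 0 division genes were called with the block (1 as reported), where 358 probe sets were called. With no filter 0 division genes were called between the mutants, where 772 probe sets were called (664 as reported).

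With each array left out in turn, the adjusted p ranged from 0.0589 to 0.227 for AUR1 in cct-1, 0.0269 to 0.109 in gct-2, 0.534 to 0.988 between the mutants and 0.0385 to 0.159 in the F test. Without gct-2 replicate 1 the sign of AUR2 between the mutants turned (0.905). For AUR2 these ranges were 0.0138 to 0.076, 0.0103 to 0.052, 0.79 to 0.947 and 0.013 to 0.0659, and for PRL 0.242 to 0.971, 0.0251 to 0.135, 0.0278 to 0.133 and 0.0141 to 0.105. The exact p ranged from 0.275 to 0.796 for AUR1 minus AUR2 and from 0.0179 to 0.114 for PRL minus the Aurora mean. Probe sets called ranged from 590 to 1310, 805 to 1646, 151 to 647 and 1055 to 1939, and division genes called from 2 to 4 in cct-1, 3 to 9 in gct-2 and 0 to 4 between the mutants.

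Among the other division genes signs turned for some differences that were not called. With array weights this was BUB3.1 between the mutants (adjusted p 0.892) and HBT in gct-2 (0.967). With 1 array left out it was BUB3.1 (range over the 9 fits 0.813 to 0.966), HTR12 (0.541 to 0.931), HBT (0.252 to 0.95) and SAMBA (0.386 to 0.823) between the mutants, KEU (0.436 to 0.972) and HBT (0.741 to 0.993) in gct-2, and HBT (0.137 to 0.992) and PSF2 (0.699 to 0.991) in cct-1. With the block the calls of AUR3 (0.0638) and TOPII (0.0662) in gct-2 and of KINESIN-12B in cct-1 (0.0568) were lost, and POLA3 passed in gct-2 (0.0267). With array weights SAMBA (0.047, higher), PSF2 (0.0183) and POLA3 (0.0111) passed in gct-2, and PSF2 (0.0299) and TOPII (0.0463) between the mutants. In the fit of gct-2 and wild type alone SAMBA (0.0391, higher) and POLA3 (0.0432) passed.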
